A study of Mus musculus with 6 samples.

Results

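The 10 genes described here make prostaglandins, break them down or receive their signal: the cyclooxygenases Ptgs1 and Ptgs2, the terminal synthases Ptges, Ptges2 and Ptgis, the degrading enzyme Hpgd, and the receptors Ptger1, Ptger2, Ptger4 and Ptgfr. They were found by symbol among the 55414 gene identifiers of the deposited count table, and all 10 were present. The set was chosen from earlier results of the same libraries, in which Ptgs2 was known to be among the clearest increases. Counts of members called in this comparison are therefore a description and not an independent test.

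RNA was sequenced from C2C12 cells, a line of mouse myoblasts that can exit the cell cycle and fuse into myotubes, kept in growth medium with serum. The siUsf2 group (3 libraries, siUsf2 1 to 3) was transfected with an siRNA against Usf2, which encodes a transcription factor that binds E-box sequences. The siControl group (3 libraries, siControl 1 to 3) was transfected with a control siRNA, and all cells were wild type and were transfected with lipofectamine. The series asks which genes change when Usf2 is knocked down. All 6 libraries come from 1 cell line, and the labels do not say whether replicates were separate cultures, so p-values here reflect the variation among these libraries, part or all of which may be technical.

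Usf2 measured 17.1 and 15.3 CPM (counts per 1000000 counts of the library) in siUsf2 1 and 2, and siUsf2 3 held 30.8 CPM, against 26.2, 31.2 and 23.0 CPM in siControl 1 to 3. The level in the third library goes against its label, so it is called the library labelled siUsf2 3, shown apart, and left out of the 5-library comparison (siUsf2 1 and 2 against siControl 1 to 3). It was also the shallowest, with 3414565 counts, against 14790997 to 17715250 in the other libraries. Pseudogenes took 0.974% of its counts and 14% to 15.3% of the others', and its log2 profile correlated with the others at 0.884 to 0.888, where the other pairs reached 0.991 to 0.996. Usf2 itself has 1 pseudogene copy, which held 4.17 and 4.09 CPM in siUsf2 1 and 2, with 0 CPM in the library labelled siUsf2 3. In siControl 1 to 3 the copy held 6.56, 9.50 and 4.23 CPM. Whether this alters the Usf2 levels compared here was not tested. In the 5-library comparison Usf2 differed by -0.74 on the log2 scale (SE 0.14, adjusted p = 6.43e-04, edgeR quasi-likelihood test), and with all 6 libraries by -0.40 (SE 0.28, adjusted p = 0.702, edgeR).

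Prostaglandins are lipid signals made from arachidonic acid, which phospholipases release from membranes. Cyclooxygenases turn it into the common precursor prostaglandin H2, and terminal synthases turn that into prostaglandin E2, prostacyclin and other products. Ptgs1 is usually constitutive, whereas Ptgs2 is an inducible early response gene. In mouse muscle, prostaglandin E2 acting through the EP4 receptor is known to support the expansion of muscle stem cells, and prostaglandin F2alpha acting through its receptor is known to promote myotube growth.

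USF proteins bind the E-box letters CACGTG, so the promoters of the 4 genes called higher and of Ptges2, which also holds these letters, are shown with each match to the E-box pattern CANNTG in capitals. An E-box in the Ptgs2 promoter has been studied as a USF-binding element in ovarian granulosa cells. RefSeq windows on GRCm38.p6, running from 250 bases before to 50 after the RefSeq start, were at hand for 8 of the 10 genes, all but Ptgis and Ptger1. The stretches below read 5′ to 3′ on the gene's strand: Ptgs2 from chr1:150099905-150100054 (plus strand, ending 24 bases past the start), Ptges2 from chr2:32395740-32395889 (plus strand), Ptges from chr2:30903298-30903447 (minus strand), Ptgs1 from chr2:36230276-36230425 (plus strand) and Hpgd from chr8:56294402-56294551 (plus strand). The last 4 end at the base before the RefSeq start, which for Ptges lies inside the longer GENCODE span of the gene.
Ptgs2: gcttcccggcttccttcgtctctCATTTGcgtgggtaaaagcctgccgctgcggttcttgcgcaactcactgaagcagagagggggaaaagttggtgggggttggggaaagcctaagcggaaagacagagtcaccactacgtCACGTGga
Ptges2: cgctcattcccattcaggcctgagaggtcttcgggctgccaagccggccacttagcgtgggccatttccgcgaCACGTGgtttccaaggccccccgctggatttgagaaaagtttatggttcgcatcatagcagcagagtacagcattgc
Ptges: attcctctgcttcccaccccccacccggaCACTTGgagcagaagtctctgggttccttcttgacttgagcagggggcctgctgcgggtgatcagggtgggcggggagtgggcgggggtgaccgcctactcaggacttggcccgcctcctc
Ptgs1: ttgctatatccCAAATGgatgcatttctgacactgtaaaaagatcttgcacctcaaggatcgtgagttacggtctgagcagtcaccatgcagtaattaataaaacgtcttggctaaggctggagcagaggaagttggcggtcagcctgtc
Hpgd: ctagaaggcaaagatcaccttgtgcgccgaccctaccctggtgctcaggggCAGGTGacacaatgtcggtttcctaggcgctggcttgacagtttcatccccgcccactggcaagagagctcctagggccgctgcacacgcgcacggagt

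The E-box CACGTG, which reads the same on both strands, occurred in the windows of 2 of the 8 genes, Ptgs2 and Ptges2, and in 7.15% of all 32851 windows. In Ptgs2 it lies 16 bases after the RefSeq start (chromosome 1, 150100047 to 150100052) within the longer match GTCACGTG, which 2.247% of all windows hold on either strand. In Ptges2 it lies 77 bases before the RefSeq start (chromosome 2, 32395813 to 32395818). The looser pattern CANNTG, which includes every CACGTG match, was present in 7 of the 8 windows and in 72.3% of all windows. The full cAMP response element TGACGTCA was in none of the 8 windows, against 1.79% of all windows, and the M-box CATGTG was in none of them, against 14.2%. Shorter forms of the cAMP response element were not searched. The Ptgs2 stretch holds CGTCA, the end of that element, where it runs into CACGTG. Each motif was searched on both strands. These matches describe letters in the reference sequence; binding was not measured. Of the 2 genes with CACGTG, Ptgs2 was higher in siUsf2 cells and Ptges2 was not called in either direction in the main comparisons.

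Both cyclooxygenase transcripts, the prostaglandin E synthase Ptges and the degrading enzyme Hpgd were higher in siUsf2 1 and 2 than in siControl, and the prostacyclin synthase Ptgis was lower. Ptgs2 was 2.37-fold as high in the mean of siUsf2 1 and 2 as in siControl, Ptges and Hpgd rose with it from low levels, and Ptgs1 rose less. Of the 10 genes, edgeR called 4 higher (Ptgs1, Ptgs2, Ptges and Hpgd) and 1 lower (Ptgis) with 5 libraries at an adjusted p below 0.05. None of the 4 receptors was called. Across all 17217 genes tested, 4.97% were called higher and 6.4% lower, the median log2 fold change was -0.01, and the median of the 10 genes was 0.15. With all 6 libraries edgeR called none of the 10, and it called 0.042% of 16662 genes in either direction. An unadjusted p below 0.05 was found for 4 of the 10, against 10.5% of all genes tested. DESeq2 called 3 of the 10 higher, against 296 of the 16662 genes, and limma-voom called 1 higher, against 19. All 10 genes passed the filter on low counts in both comparisons.

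Every siUsf2 library, including the one labelled siUsf2 3, lay above every siControl library for 4 of the 10 genes, Ptgs1, Ptgs2, Ptges and Hpgd, against 11.4% of all genes tested. No member had every siUsf2 library below every siControl library, against 11.2% of all genes tested. Because the set was assembled with this comparison known, nothing is read from either share. Myog, a muscle differentiation factor, also differed between these groups (log2 difference -1.77 with 5 libraries), and its part in the prostaglandin gene differences was not tested.

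**Figure D1:**
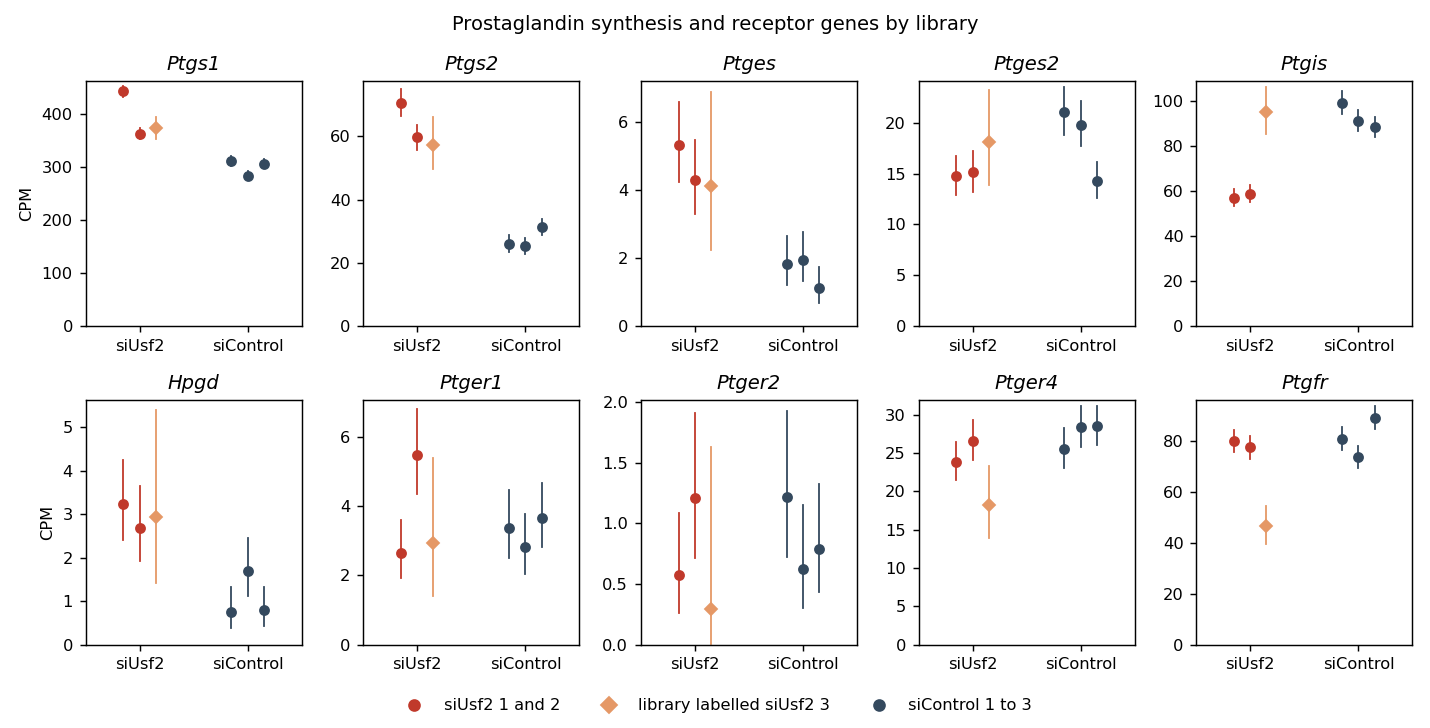
Level of each of the 10 genes in CPM (vertical axis, from 0, own scale per panel) in siUsf2 libraries 1 and 2 (red), the library labelled siUsf2 3 (orange diamond) and siControl libraries 1 to 3 (dark blue); bars are exact Poisson 95% intervals, which cover counting error only. All siUsf2 points for Ptgs1, Ptgs2, Ptges and Hpgd lie above the siControl points, and for Ptgis the library labelled siUsf2 3 lies with siControl.

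Ptgs1 (chromosome 2, 36230426 to 36252272, plus strand, GRCm38) was the most abundant of the 10 genes. It measured 442 and 363 CPM in siUsf2 1 and 2, with 373 CPM in the library labelled siUsf2 3, against 311, 283 and 306 CPM in siControl 1 to 3. All 3 siUsf2 libraries were higher than all siControl libraries, with siUsf2 1 the highest. Its log2 fold change came to 0.41 (SE 0.09, 95% interval 0.23 to 0.59) with 5 libraries and 0.36 (SE 0.11, 95% interval 0.08 to 0.63) with 6. The edgeR adjusted p was 0.00234 with 5 libraries and 0.333 with 6. Without siUsf2 1 the 5-library difference was 0.27, so its size depends in part on that library. That fit leaves 1 siUsf2 library, so it cannot tell whether the call depends on siUsf2 1 or on the number of libraries.

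Ptgs2 (chromosome 1, 150100031 to 150108227, plus strand), the inducible cyclooxygenase, measured 70.7 and 59.7 CPM in siUsf2 1 and 2, with 57.4 CPM in the library labelled siUsf2 3. In siControl 1 to 3 it measured 26.0, 25.2 and 31.2 CPM. The groups were well apart: 65.2 ± 7.74 CPM in siUsf2 1 and 2 (SD, n = 2) and 27.5 ± 3.26 CPM in siControl (SD, n = 3), and the library labelled siUsf2 3 was at 2.09-fold the siControl mean on 196 counts. The Ptgs2 log2 fold change came to 1.23 (SE 0.11, 95% interval 1.00 to 1.46, edgeR adjusted p = 2.93e-09) with 5 libraries. With 6 it was 1.16 (SE 0.14, 95% interval 0.80 to 1.51, edgeR adjusted p = 0.071). Across 16 other settings of the 5-library comparison the difference stayed between 1.12 and 1.35 on the log2 scale, and it passed the threshold in each, with adjusted p between 9.94e-26 and 0.0415. In bulk RNA, more RNA per cell and more cells of a kind that expresses a gene cannot be told apart.

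Per kilobase of exon, the mix of the 2 cyclooxygenases held more Ptgs2 in siUsf2 cells. The ratio of Ptgs2 to Ptgs1, which no library total enters, was 0.136 and 0.140 in siUsf2 1 and 2, with 0.131 in the library labelled siUsf2 3, against 0.0708, 0.0756 and 0.0865 in siControl 1 to 3. The ratio in every siUsf2 library lay above that in every siControl library, and the siUsf2 1 and 2 mean was 1.77-fold the siControl mean. Ptgs1 still had more counts per kilobase than Ptgs2 in every library.

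Ptges (chromosome 2, 30889471 to 30929863, minus strand) encodes the inducible microsomal prostaglandin E synthase that works with Ptgs2. It had 84 and 64 counts in siUsf2 1 and 2, with 14 in the library labelled siUsf2 3, against 27, 31 and 20 in siControl 1 to 3. In depth-adjusted terms this was 5.31 and 4.29 CPM in siUsf2 1 and 2, with 4.10 CPM in the library labelled siUsf2 3, against 1.83, 1.94 and 1.13 CPM in siControl. All 3 values were higher than siControl, but the Poisson interval of the library labelled siUsf2 3 (2.24 to 6.88 CPM) reached into those of siControl 1 and 2. The Ptges log2 fold change came to 1.55 (SE 0.32, 95% interval 0.90 to 2.20, edgeR adjusted p = 0.00119) with 5 libraries and 1.47 (SE 0.30, edgeR adjusted p = 0.173) with 6.

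Ptges2 (chromosome 2, 32395896 to 32405772, plus strand), which encodes a second, membrane-associated prostaglandin E synthase, was not called. It measured 14.7 and 15.1 CPM in siUsf2 1 and 2, with 18.2 CPM in the library labelled siUsf2 3, against 21.1, 19.8 and 14.3 CPM in siControl 1 to 3. The groups overlapped, with siControl 3 as low as siUsf2 1 and 2. The log2 difference was -0.31 (SE 0.16, 95% interval -0.64 to 0.02, edgeR adjusted p = 0.236) with 5 libraries. Without siControl 3 it was -0.45 (edgeR adjusted p = 0.0207), so the absence of a call depends on that library. This was not particular to Ptges2. Leaving out siControl 3 raised the calls over all genes from 855 to 1596 higher and from 1102 to 1964 lower.

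Ptgis (chromosome 2, 167191805 to 167240604, minus strand), the synthase that makes prostacyclin, went the other way. It measured 57.0 and 58.7 CPM in siUsf2 1 and 2, against 98.9, 91.1 and 88.3 CPM in siControl 1 to 3. The library labelled siUsf2 3 held 95.2 CPM (95% Poisson interval 85.1 to 106), within the siControl range, as its Usf2 level was. The Ptgis log2 fold change came to -0.69 (SE 0.10, 95% interval -0.89 to -0.50, edgeR adjusted p = 4.86e-06) with 5 libraries and -0.44 (SE 0.20, 95% interval -0.94 to 0.06, edgeR adjusted p = 0.537) with 6. Among the 5 called genes, Ptgis is the exception in that the library labelled siUsf2 3 did not share the difference.

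The balance of the terminal synthases differed accordingly. Per kilobase of exon, Ptges over Ptgis was 0.0608 and 0.0477 in siUsf2 1 and 2, with 0.0281 in the library labelled siUsf2 3, against 0.0121, 0.0139 and 0.00835 in siControl 1 to 3. Ptges over Ptges2 was 0.464 and 0.364 in siUsf2 1 and 2, with 0.291 in the library labelled siUsf2 3, against 0.111, 0.126 and 0.102 in siControl 1 to 3. Both ratios were higher in every siUsf2 library than in every siControl library, with siUsf2 1 and 2 means 4.75-fold and 3.67-fold the siControl means. Ptgis still exceeded Ptges per kilobase in all 6 libraries.

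**Figure D2:**
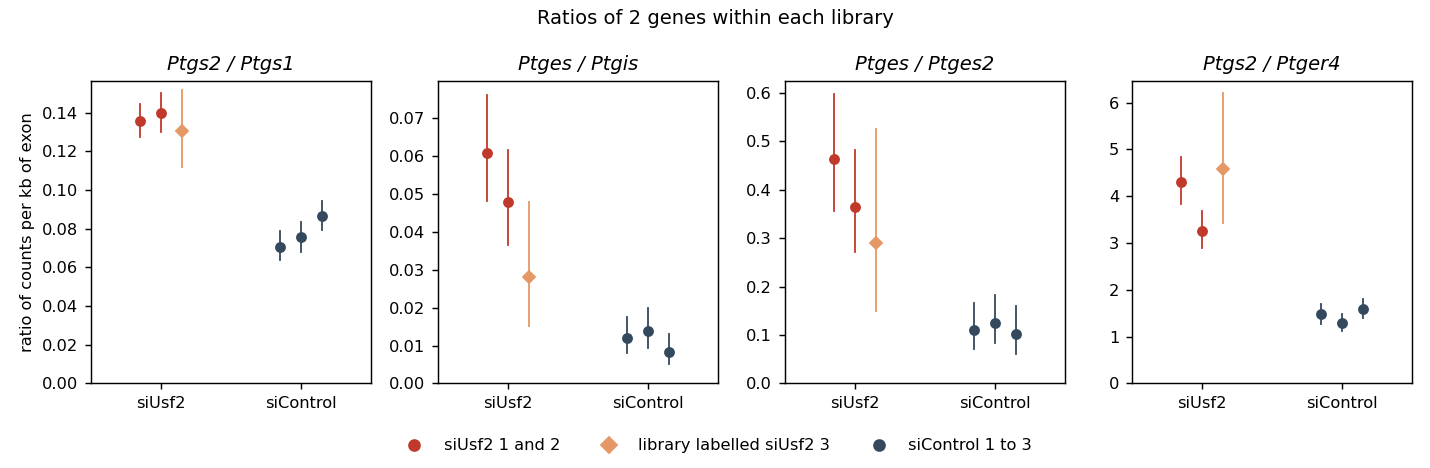
Ratio of 2 genes in counts per kilobase of exon within each library (vertical axis, from 0, own scale per panel), for siUsf2 1 and 2 (red), the library labelled siUsf2 3 (orange diamond) and siControl 1 to 3 (dark blue); bars are exact binomial 95% intervals of counting error. In all 4 panels every siUsf2 point lies above every siControl point, and for Ptges over Ptgis the library labelled siUsf2 3, at 0.0281, lies between the 2 sets.

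Hpgd (chromosome 8, 56294585 to 56321043, plus strand) encodes the dehydrogenase that begins prostaglandin breakdown. Its counts were low: 51 and 40 in siUsf2 1 and 2, with 10 in the library labelled siUsf2 3, against 11, 27 and 14 in siControl 1 to 3. The matching levels were 3.22 and 2.68 CPM in siUsf2 1 and 2, with 2.93 CPM in the library labelled siUsf2 3, against 0.744, 1.69 and 0.790 CPM in siControl, so all 3 were higher than siControl, and siControl 2 came nearest to them. Its log2 fold change came to 1.44 (SE 0.41, 95% interval 0.60 to 2.28, edgeR adjusted p = 0.0206) with 5 libraries and 1.42 (SE 0.39, edgeR adjusted p = 0.281) with 6. The call was lost without siControl 1 (log2 difference 1.25, edgeR adjusted p = 0.102) and without siUsf2 1 (1.32, edgeR adjusted p = 0.171). Relative to Ptgs2, Hpgd per kilobase was 0.124 and 0.122 in siUsf2 1 and 2, with 0.139 in the library labelled siUsf2 3, against 0.0780, 0.182 and 0.0689 in siControl, and the groups overlapped.

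The 4 receptors were not called in either comparison. Ptgfr (chromosome 3, 151796502 to 151837630, minus strand), the prostaglandin F receptor, was the most abundant of them. It measured 79.9 and 77.5 CPM in siUsf2 1 and 2, with 46.6 CPM in the library labelled siUsf2 3, against 80.9, 73.5 and 89.1 CPM in siControl 1 to 3. The 5-library log2 difference was -0.06 with a 95% interval of -0.26 to 0.14. Only the library labelled siUsf2 3 stood below the siControl range, and with it the 6-library difference was -0.28 (95% interval -0.88 to 0.32).

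Ptger4 (chromosome 15, 5206661 to 5244187, minus strand) encodes EP4, a prostaglandin E2 receptor that raises cAMP. Its level was 23.8 and 26.6 CPM in siUsf2 1 and 2, with 18.2 CPM in the library labelled siUsf2 3, against 25.6, 28.4 and 28.5 CPM in siControl 1 to 3. The library labelled siUsf2 3 and siUsf2 1 were below the siControl range, and siUsf2 2 lay within it. The log2 difference was -0.14 (95% interval -0.39 to 0.11) with 5 libraries and -0.29 (95% interval -0.73 to 0.16) with 6. Its annotated exons share 1015 bases (15.3%) with the processed pseudogene Gm15937 on the other strand, which had 1 count in siControl 1 and none elsewhere, and 82 bases with Ttc33. Ttc33 had 694 and 605 counts in siUsf2 1 and 2, with 120 in the library labelled siUsf2 3, against 576, 731 and 829 in siControl 1 to 3. These were more than Ptger4 had in each library. The effect of these overlaps on the Ptger4 counts was not tested.

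Ptger1 (chromosome 8, 83666678 to 83672753, plus strand) encodes EP1, a receptor coupled to calcium release. Its values are uncertain, since the strand setting of the counting is not given in the sources used here. Ptger1 had 42 and 82 counts in siUsf2 1 and 2, with 10 in the library labelled siUsf2 3, against 50, 45 and 65 in siControl 1 to 3. The siUsf2 1 and 2 libraries lay on either side of siControl, and the log2 difference was 0.29 (95% interval -0.33 to 0.91).

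Ptger2 (chromosome 14, 44988195 to 45003820, plus strand), which encodes EP2, the other cAMP-raising receptor for prostaglandin E2 here, was near the limit of detection. It had 9 and 18 counts in siUsf2 1 and 2, with 1 in the library labelled siUsf2 3, against 18, 10 and 14 in siControl 1 to 3. The log2 difference of 0.01 had a 95% interval of -1.17 to 1.18, so a difference of 1 on the log2 scale in either direction was not detectable at this depth. Small overlaps on the other strand also affect Ptgs1 (148 bases with Gm43621), Ptgis (156 with 1110018N20Rik), Ptgfr (329 with Gm43618) and Ptger2 (246 with Gm17173 and 144 with Gm49364). Of these partners, Gm43621 had the most counts, 44 in siUsf2 1, and each was far below the member it overlaps except for Ptger2. No pseudogene transcript matched any of the 10 genes at 90% identity over 50% of its length.

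**Figure D3:**
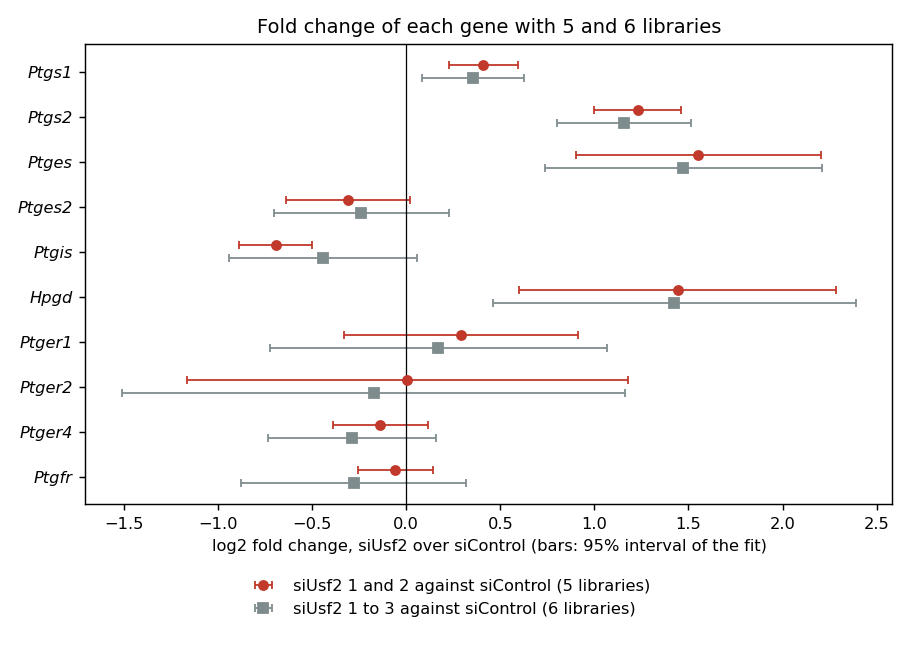
Log2 fold change of siUsf2 over siControl for each of the 10 genes from edgeR (horizontal axis), with siUsf2 1 and 2 against siControl 1 to 3 (red circles, 5 libraries) and with siUsf2 1 to 3 (grey squares, 6 libraries); bars are 95% intervals of the fit. Ptgs1, Ptgs2, Ptges and Hpgd lie above 0 with both intervals, Ptgis lies below 0 with its 5-library interval alone, and the intervals of all 4 receptors cross 0.

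Set in order by level per kilobase, the genes ran in siControl from Ptgs1 at 77.3 RPKM (CPM per kilobase of exon) through Ptgis at 36.1, Ptgfr at 11.97, Ptgs2 at 5.998, Ptger4 at 4.13 and Ptges2 at 3.64 RPKM. Below 1 RPKM lay Hpgd at 0.638, Ptger1 at 0.602, Ptges at 0.415 and Ptger2 at 0.169 RPKM. The siControl ranges of Ptger4 and Ptges2 overlapped, as did those of Hpgd with Ptger1 and with Ptges. In the siUsf2 1 and 2 means the order changed at 2 places: Ptgs2 at 14.2 RPKM stood above Ptgfr at 11.6 RPKM, and Ptges at 1.22 RPKM stood above Ptger1 at 0.746 RPKM. Ptgs2 over Ptgfr was 1.31 and 1.14 in siUsf2 1 and 2, with 1.82 in the library labelled siUsf2 3, against 0.475, 0.508 and 0.519 in siControl 1 to 3. The exchange of places was thus present in every siUsf2 library and in no siControl library, although in the library labelled siUsf2 3 a low Ptgfr contributed to it.

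Upstream of the cyclooxygenases, Pla2g4a, the cytosolic phospholipase that releases arachidonic acid, was also higher. It lies within 250 kb of Ptgs2 on chromosome 1. Its level was 26.9 and 32.0 CPM in siUsf2 1 and 2, with 32.5 CPM in the library labelled siUsf2 3, against 18.3, 16.2 and 19.3 CPM in siControl 1 to 3, with no overlap between the groups. On the log2 scale it differed by 0.70 (SE 0.13, edgeR adjusted p = 5.25e-04) with 5 libraries and by 0.73 (SE 0.13, edgeR adjusted p = 0.147) with 6. It was the 1 gene called by edgeR among 21 tested of 35 other prostanoid pathway genes (phospholipases, other synthases and reductases, transporters and receptors), and it was higher, a share near the 4.97% of all genes called higher. An unadjusted p below 0.05 was found for 28.6% of the 21, against 24.9% of all genes tested. DESeq2 called 2 higher, against 732 of all 17217 genes tested. Their median log2 fold change was 0.13, against -0.01 for all genes tested.

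Of the prostanoid receptors outside the set, Ptgir was readily detected and the others named here were at or near 0. Ptgir, the prostacyclin receptor, measured 15.6 and 15.9 CPM in siUsf2 1 and 2, with 13.5 CPM in the library labelled siUsf2 3, against 18.0, 16.6 and 15.5 CPM in siControl 1 to 3, and was not called (log2 difference -0.09, SE 0.15). Ptger3, which encodes EP3, had 2 and 8 counts in siUsf2 1 and 2, with 0 in the library labelled siUsf2 3, against 5, 3 and 2 in siControl 1 to 3. Tbxa2r, the thromboxane receptor, had 0 counts in siUsf2 1 and 2, with 0 in the library labelled siUsf2 3, against 5, 3 and 2 in siControl, and Ptgdr, a prostaglandin D2 receptor, had 0 in all 6. The limit that a 0 sets (3 counts) ranged over the libraries between 0.169 and 0.879 CPM. Of 15 lipoxygenase and leukotriene genes, the other branch of arachidonic acid use, 4 could be tested and edgeR called none with 5 libraries, with 3 at an unadjusted p below 0.05 (24.9% of all genes tested were) and none called by DESeq2 or limma-voom.

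A list of 17 genes reported to respond to cAMP, the usual output of EP2 and EP4, was read out. Like the other lists here, it was chosen with earlier results of these data known, so its counts are a description and not an independent test. Neither cAMP nor prostaglandin E2 was measured. Of the 17 genes, 11 were not called with 5 libraries. With 5 libraries edgeR called 5 higher (Nr4a1, Nr4a2, Pde4d, Areg and Ccnd1) and 1 lower (Sik1), against 4.97% of all genes called higher and 6.4% lower, with a median of 0.26 against -0.01 for all genes. Nr4a2, an immediate early nuclear receptor, measured 88.9 and 79.1 CPM in siUsf2 1 and 2, with 92.0 CPM in the library labelled siUsf2 3, against 56.5, 51.4 and 52.7 CPM in siControl 1 to 3 (log2 fold change 0.64, SE 0.10, edgeR adjusted p = 2.02e-05). Areg, which encodes the growth factor amphiregulin, measured 4.17 and 4.42 CPM in siUsf2 1 and 2, with 3.22 CPM in the library labelled siUsf2 3, against 1.08, 1.56 and 1.64 CPM in siControl (log2 fold change 1.56, SE 0.33, edgeR adjusted p = 0.00148). For both genes these 3 libraries were above all siControl libraries. Nr4a1, a close relative of Nr4a2, measured 42.8 and 30.5 CPM in siUsf2 1 and 2, with 43.6 CPM in the library labelled siUsf2 3, against 24.3, 22.1 and 23.8 CPM in siControl. Its log2 fold change was 0.63 (edgeR adjusted p = 0.00129), and 0.39 (edgeR adjusted p = 0.213) without siUsf2 1.

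Sik1, a kinase that restrains cAMP-driven transcription and is itself induced by cAMP, measured 118 and 119 CPM in siUsf2 1 and 2, with 132 CPM in the library labelled siUsf2 3, against 153, 148 and 137 CPM in siControl 1 to 3 (log2 fold change -0.32, edgeR adjusted p = 0.0179). Its call was lost without siControl 1, siUsf2 1 or siUsf2 2, with edgeR adjusted p of 0.105, 0.223 and 0.122. Pde4d, a cAMP phosphodiesterase, had a log2 fold change of 0.39 (edgeR adjusted p = 0.00535, and 0.0906 without siUsf2 1). The cyclin gene Ccnd1 had one of 0.31 (edgeR adjusted p = 0.0168), and the call was lost when any of siControl 1, siControl 2, siUsf2 1 or siUsf2 2 was left out, with edgeR adjusted p of 0.0609, 0.0531, 0.192 and 0.125.

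A list of 18 known regulators of Ptgs2 transcription or mRNA decay, Usf2 among them, was set beside these. With 5 libraries edgeR called 1 higher, the calcium-regulated factor Nfatc1 (log2 fold change 0.34, adjusted p = 0.0499), and 3 lower, Usf2 itself, the stress-response factor Atf4 and the RNA-binding protein gene Celf2. Of all genes 4.97% were called higher and 6.4% lower, so the 1 higher call is near that share, and 1 of the 3 lower calls is the siRNA target. The median was -0.13, against -0.01 for all genes. Atf4 had a log2 fold change of -0.33 (edgeR adjusted p = 0.0209), and the call was lost without siControl 1, siControl 2 or siUsf2 1 (edgeR adjusted p of 0.0814, 0.0956 and 0.455). Celf2 had one of -0.37 (edgeR adjusted p = 0.00751, and 0.188 without siUsf2 1). Nfatc1 lost its call under 9 of 16 other settings.

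With all 6 libraries edgeR called none of these lists' genes. At an unadjusted p below 0.05 there were 4 of the 21 other prostanoid genes, 0 of the 4 lipoxygenase genes, 6 of the 17 cAMP response genes and 3 of the 18 regulators, against 10.5% of all genes tested. DESeq2 called 2 of the 21 other prostanoid genes higher, 3 of the 17 cAMP response genes higher and 1 lower, and none in the other 2 lists. Over all 16662 genes tested it called 296 higher and 410 lower. With limma-voom none was called in any of the 4 lists, against 19 higher and 87 lower over all genes tested.

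**Figure D4:**
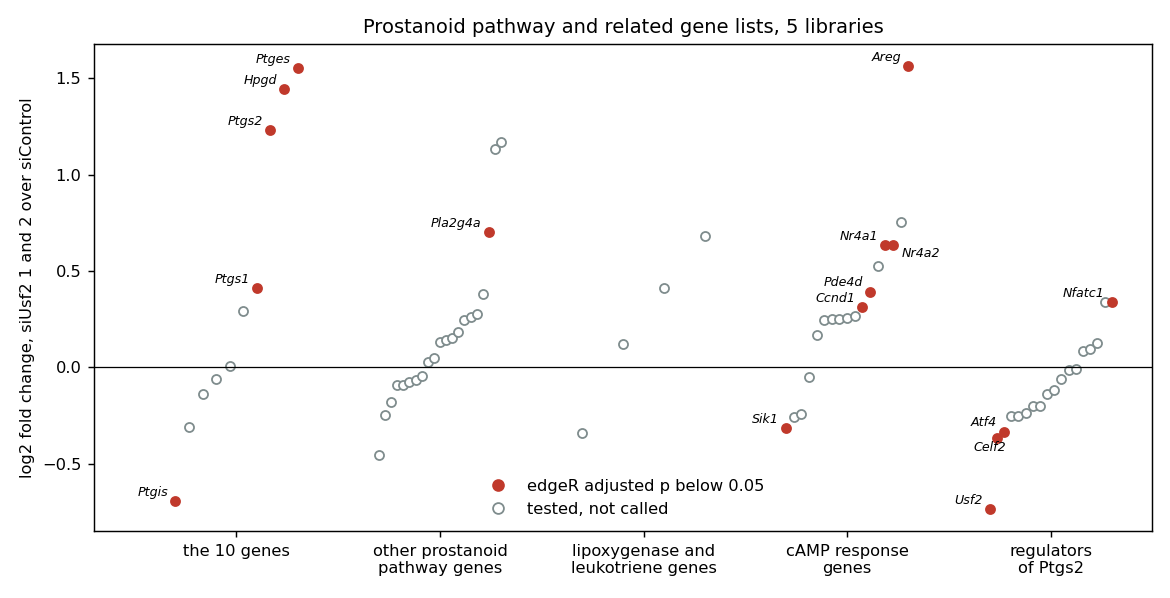
Log2 fold change of siUsf2 1 and 2 over siControl 1 to 3 (vertical axis, edgeR, 5 libraries) for every tested gene of the 10 members and of 4 related lists, ordered by value within a list; filled red points have an adjusted p below 0.05 and are named, open points were tested and not called. Among the called points, Ptges, Hpgd, Ptgs2 and Areg stand above 1 and Ptgis and Usf2 are the lowest; the open points above 1 are Pla2g4b and Pla2g4c, at 1.13 and 1.17.

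By the Pearson correlation of log2 CPM over the 6 libraries, the genes most like Ptgs2 among 9626 protein-coding genes were Cep63 (0.996), Jade1 (0.996), Dennd5a (0.995), Bub1 (0.994) and Esyt2 (0.994). These correlations describe 6 libraries in 2 groups and carry no test. The size of the difference was not shared. Jade1, a subunit gene of a histone acetyltransferase complex, measured 171 and 161 CPM in siUsf2 1 and 2, with 157 CPM in the library labelled siUsf2 3, against 115, 110.1 and 127 CPM in siControl 1 to 3. Bub1, a spindle checkpoint kinase gene, measured 40.5 and 39.7 CPM in siUsf2 1 and 2, with 38.1 CPM in the library labelled siUsf2 3, against 25.4, 24.1 and 28.1 CPM in siControl. Cep63, a centrosome gene, differed least, at 23.7 and 23.2 CPM in siUsf2 1 and 2, with 23.1 CPM in the library labelled siUsf2 3, against 21.1, 20.99 and 21.8 CPM in siControl.

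The myoblast markers Myod1, Myf5, Pax7, Cdh15 and Des were detected in every library. Differentiation markers moved with the groups: Myog measured 282 and 330 CPM in siUsf2 1 and 2, with 522 CPM in the library labelled siUsf2 3, against 1036, 1156 and 918 CPM in siControl 1 to 3. Of the 7 myoblast and muscle markers, edgeR called 5 lower (Myog, Chrna1, Cdh15, Des and Myod1) and 1 higher (Myf5) with 5 libraries, against 6.4% of all genes called lower and 4.97% higher. Their summed level was 2254 to 2441 CPM in siUsf2 1 and 2, with 3134 CPM in the library labelled siUsf2 3, against 3458 to 4165 CPM in siControl. The part of these markers was not tested. The 6 macrophage and leukocyte markers summed to 20.7 to 23.1 CPM in siUsf2 1 and 2, with 23.4 CPM in the library labelled siUsf2 3, against 20.1 to 25.4 CPM in siControl, nearly all of it Cd14, with Adgre1 and Itgam at 0 in every library. The 5 endothelial markers summed to 3.08 to 3.29 CPM in siUsf2 1 and 2, with 4.69 CPM in the library labelled siUsf2 3, against 1.29 to 2.94 CPM in siControl, with Tie1 at 0. Tek made up most of this sum in every library, and Pecam1, Cdh5 and Kdr had at most 6 counts in any library. Adipocyte markers summed to 0.938 to 1.01 CPM in siUsf2 1 and 2, with 2.93 CPM in the library labelled siUsf2 3, against 0.2499 to 0.395 CPM in siControl. This sum rests on few counts. Fabp4 had 9 and 11 in siUsf2 1 and 2, with 9 in the library labelled siUsf2 3, against 3, 2 and 7 in siControl 1 to 3. Adipoq, Plin1 and Cidec had at most 4 in any library. Epithelial markers summed to at most 0.0632 CPM in siUsf2 1 and 2, with 0.293 CPM in the library labelled siUsf2 3, against at most 0.621 CPM in siControl, with Krt18 at 0. Fibroblast markers summed to 167 to 187 CPM in siUsf2 1 and 2, with 149 CPM in the library labelled siUsf2 3, against 166 to 188 CPM in siControl. Nearly all of this sum was Pdgfra and Dcn, while Thy1 had at most 7 counts and Lum at most 15 in any library.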

How the data were processed

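Whole-number read counts per Ensembl gene were deposited for all 6 libraries, per the file headers, with no normalization. The submitters' processing notes name build mm10 with HISAT2, featureCounts, DESeq2, FastQC and Trimmomatic. Tool versions, annotation and strand setting were not given in the sources used here. The deposited table whose name says TPM holds CPM: every value was a whole number of reads (100% within 1e-06), and the recovered reads equalled the deposited counts. Alternatives planned for that table hence used log2(CPM + 1) or log2(CPM + 0.1). The count fit on the recovered reads called 855 genes higher and 1102 lower with 5 libraries, as the deposited counts did; this alternative was added after seeing the data.

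Symbols, exons and coordinates came from GENCODE M21 on GRCm38, which named 52133 of 55414 identifiers. Of the 55414, 25980 had 0 counts throughout. Tests used edgeR 4.0.16 in R 4.3.3: filterByExpr, TMM, the robust quasi-likelihood test, two-sided. Adjusted p-values (Benjamini-Hochberg, all tested genes) below 0.05 were called. DESeq2 1.42.0 and limma 3.58.1 were alternatives. The fit was tested on simulated counts. Replicate pairs differed beyond counting noise (chi-square per degree of freedom at least 4.18), so none was merged. Intervals on single values are exact Poisson or binomial 95% intervals for counting error only. Pseudogene transcripts were compared with minimap2 2.31 (at least 150 matching bases).

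The members and lists were chosen with earlier results of these data known. Named were all members, list genes called with 5 libraries (at most 6 a list, by smallest p), prostanoid genes within 250 kb of a member, genes that overlap a member's exons, the 5 genes most like Ptgs2 (mean log2 CPM of at least 3) and Usf2. Marker genes, further prostanoid receptors, Pla2g4b and Pla2g4c named beside them were picked from the lists after their values were seen. A gene that this rule names is not reported here.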

Additional observations from a re-analysis of the deposited data

How the results depend on the processing

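No called difference changed direction; of the uncalled genes, Ptger1, Ptger2 and Ptgfr crossed 0 under some settings (Ptger1 from -0.34 to 0.74 on the log2 scale with 5 libraries). With 5 libraries, where 4 of the 10 genes were called higher and 1 lower, limma on log2(CPM + 1) called 2 higher (Ptgs2 and Ptges) and limma on log2(CPM + 0.1) called 1 higher (Ptgs2) and 0 lower. Leaving out each library gave 2 to 4 higher and 1 to 2 lower, 2 higher without siUsf2 1 and 2 lower without siControl 3, which added Ptges2. When 1 siUsf2 library is left, it is assumed to vary like siControl. With 6 libraries, where none was called, DESeq2 called 3 higher, limma-voom 1 and edgeR without a filter 1 (Ptgs2), and leaving out each library gave 0 to 4 higher and 0 to 1 lower, with 4 higher and 1 lower without the library labelled siUsf2 3. The cause of these moves was not tested.

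The deviations of the same-numbered libraries of the groups had correlations of -0.0672, -0.00863 and -0.0703. The library labelled siUsf2 3 lay far from the others (correlations 0.884 to 0.888, against 0.991 to 0.996 for the other pairs). It can therefore set the siUsf2 deviations, so these values cannot decide whether the numbers pair the samples. A replicate block in the 5-library comparison called 4 higher and 2 lower, including Ptges2 (log2 difference -0.46, adjusted p = 0.0116, edgeR). In that fit siControl 3 was alone in its block, so it added nothing to the group difference. The Ptges2 call with the block is thus not separate from the call without siControl 3. With 6 libraries the block called 0.

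Over all genes with 5 libraries, 855 were called higher and 1102 lower. The replicate block gave 1719 and 2270, log2(CPM + 1) gave 206 and 311, log2(CPM + 0.1) gave 50 and 138, and an adjusted p below 0.01 gave 398 and 540. Leaving out a library gave 349 to 1596 higher and 519 to 1964 lower, lowest without siUsf2 1 and highest without siControl 3. Upper-quartile scaling gave 1124 and 900, moving the share called higher to 55.5%, against 43.7%. With 6 libraries, 0 higher and 7 lower became 296 and 410 by DESeq2, 19 and 87 by limma-voom and 12 and 104 without a filter. No call was made with upper-quartile scaling, the block or limma on log2 CPM, while 1753 genes had an unadjusted p below 0.05 in the main comparison. Depth limits Ptges, Hpgd, Ptger1 and Ptger2 most, which had at most 14 counts in the library labelled siUsf2 3.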
